A study of Mus musculus with 4 samples.

Results

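The nuclear-encoded genes of oxidative phosphorylation were taken by name from a table of gene counts of mouse myeloid progenitors. Every symbol that begins with Nduf and then a, b, c, s or v, with Uqcr, with Cox and a digit from 4 to 8 or with Atp5 was included, together with Sdha, Sdhb, Sdhc and Sdhd, and symbols marked as pseudogenes were left out. This gave 85 of the 12067 genes in the table, 44 for complex I, 4 for complex II, 8 for complex III, 13 for complex IV and 16 for complex V. Ndufa4 was counted with complex IV despite its symbol. The pattern matched 97 genes of the GENCODE M21 annotation, and 13 of those symbols were not in the table, 9 of them protein coding. Of these 9, Atp5mpl is in the table under its older symbol 2010107E04Rik and was not counted as a member. The symbols not in the table include Cox4i2, Cox6a2, Cox7a1 and Cox8b, isoforms known from lung, heart or skeletal muscle. Of the members, 84 were found in the annotation by symbol, on 18 chromosomes. The rule counts 8 assembly factors of complex I (Ndufaf1 to Ndufaf8), the supercomplex factor Cox7a2l and Atp5sl with the subunits. Atp5sl, whose RefSeq symbol is Dmac2, was placed in complex V by its older name alone. The rule misses Cyc1, Cycs, Atpif1, Usmg5 and 2010107E04Rik, whose symbols differ.

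The cells were donor-derived KL cells, the myeloid progenitors that lack lineage markers and Sca-1 but carry c-Kit, sorted from the marrow of Ptprca recipients at 20 weeks after a transplant of whole bone marrow. The 2 BcorΔE9-10 libraries came from donors of the genotype scl-Cre-ERT +; Bcorfl/y, in which tamoxifen activates Cre in haematopoietic stem cells and exons 9 and 10 of the X-linked gene Bcor are lost, so that the protein ends before the domain that binds its Polycomb partner PCGF1. The 2 BcorWT libraries came from Bcorfl/y donors without Cre. Donors of both groups had received tamoxifen and carried the loxP-flanked allele, so effects of Cre cannot be told apart from those of the deletion. The recipients were irradiated sub-lethally and keep blood-forming cells of their own, which the sort on CD45.2 leaves out. The labels give neither donor ages nor whether libraries 1 and 2 of a genotype came from separate recipients, so p-values measure the spread between these libraries. The comparison asks whether progenitors that descend from stem cells without full-length Bcor carry a different level of respiratory chain transcripts.

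Oxidative phosphorylation makes most of the ATP of many cells at the inner mitochondrial membrane. Complex I takes electrons from NADH and complex II from succinate, both pass them through ubiquinone to complex III, cytochrome c carries them to complex IV, and oxygen is reduced there. The protons that complexes I, III and IV pump return through complex V, the ATP synthase. Most subunits are encoded in the nucleus and imported, while a small core is encoded by mitochondrial DNA. Haematopoietic stem cells are known for leaning on glycolysis, and their committed progeny for turning to mitochondrial respiration.

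Totals lay between 3825289.5 and 6253100.5 counts per library. The members took 0.975% of the counts (95% Wilson interval 0.967 to 0.984%) in BcorΔE9-10 replicate 1, 0.856% (0.848 to 0.863%) in BcorΔE9-10 replicate 2, 0.739% (0.730 to 0.747%) in BcorWT replicate 1 and 1.09% (1.09 to 1.10%) in BcorWT replicate 2. The BcorWT libraries thus had both the lowest and the highest share. A single non-coding transcript, Gm42418, held between 1.43% (1.42 to 1.45%) and 27.9% (27.8 to 27.9%) of a library, both extremes again in BcorWT, and with it taken out of the totals the members held 1.17, 0.998, 1.02 and 1.11% in the same order. Intervals cover counting error only. Levels are given as CPM, counts relative to the library total after scaling with edgeR's TMM factors, and 3 counts correspond to between 0.489 and 0.876 CPM. Quant-seq reads come from the 3′ end of a transcript, 1 tag per molecule whatever its length, so levels of different genes compare numbers of tags. The progenitor markers Mpo (4284 to 6889 CPM), Prtn3 (1993 to 2735 CPM) and Kit (29.4 to 61.9 CPM) were present in all 4 libraries. Late neutrophil transcripts were more abundant. The 8 late neutrophil genes listed summed to between 63364.5 and 155144 CPM, and the 8 myeloid progenitor genes listed to between 8309 and 11187 CPM. The counts of Bcor (104, 113, 58 and 79) are tags of the 3′ end and do not check the loss of the internal exons.

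Of the nuclear-encoded members, Atp5l alone stood out between genotypes by its own counts, and summed with its near-identical copies it did not (log2 fold change 0.46, edgeR adjusted p = 0.945, against 3.96). With edgeR's quasi-likelihood test and Benjamini-Hochberg adjustment over all genes, 0 of the 85 members passed an adjusted p of 0.05, where 2 of the 12067 genes did (0.0166%). At an unadjusted p under 0.05, 1 member was higher in BcorΔE9-10, this ATP synthase subunit gene, against 1.34% of all genes. In the other direction 0 members were lower, against 3.07% of all genes. The limma-voom fit called 1 member (0.0331% of all genes) and DESeq2 called 1 member (0.356% of all genes), Atp5l in both. For 13 members (15.3%) both BcorΔE9-10 libraries lay above both BcorWT libraries, and for 18 members (21.2%) both lay below, where 16.8% and 17.1% of all genes did. Scaled by library totals alone these counts were 17 and 5 members, against 22.7% and 11.1% of all genes. With 2 libraries against 2, the smallest p that an exact permutation test can give is 0.333. The plot of levels by library shows the members gene by gene.

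**Figure D1:**
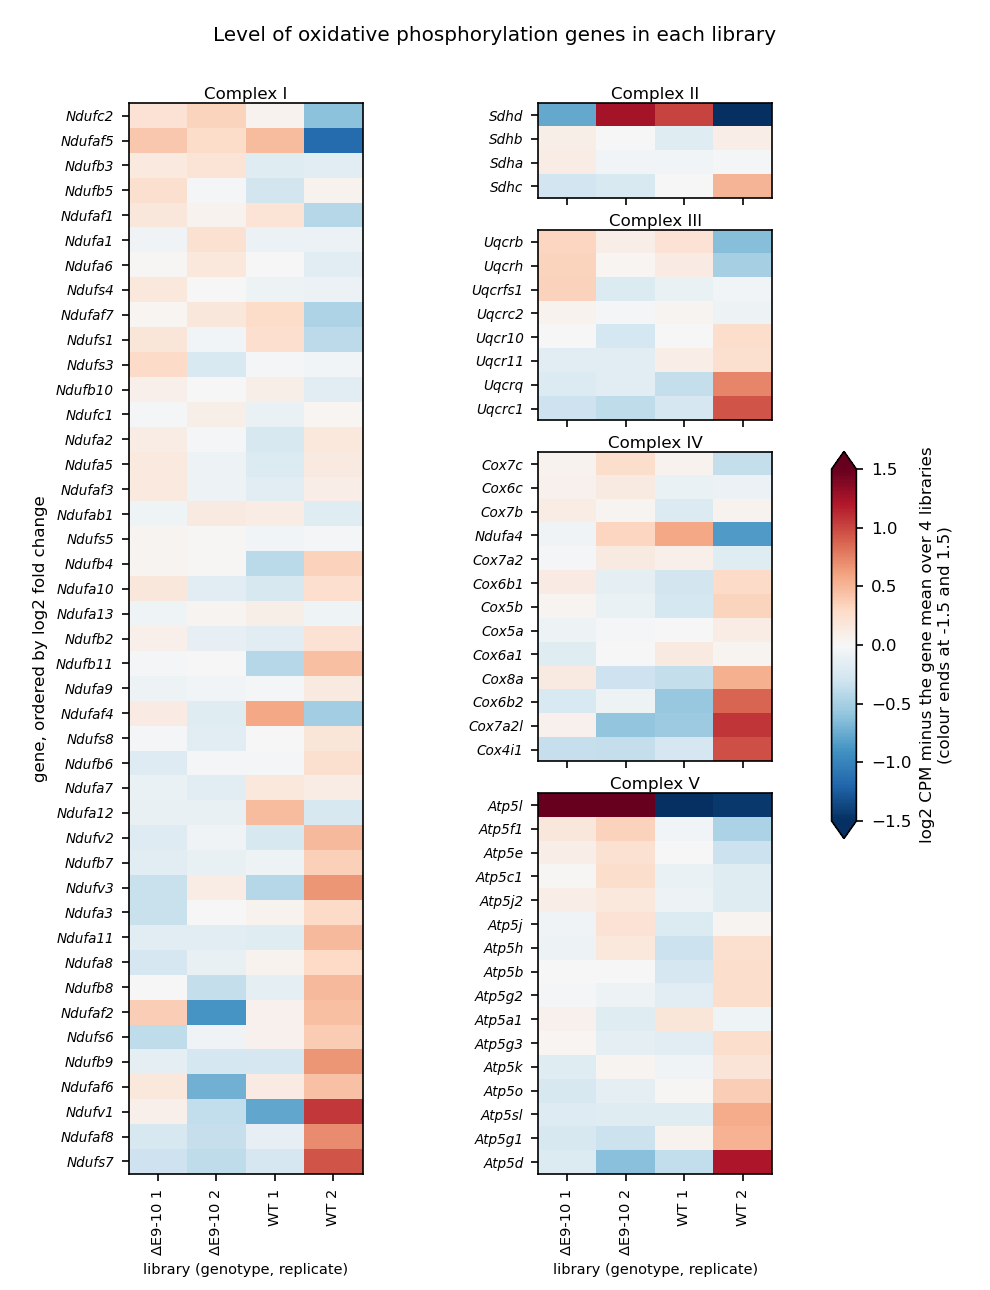
Level of 84 of the 85 members (1 is not drawn) in each of the 4 libraries, as log2 CPM minus the mean of that gene over the libraries, by complex and ordered by log2 fold change. Atp5l is high in both BcorΔE9-10 libraries, while most other strong colours lie in the column of BcorWT replicate 2 (WT 2).

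The median log2 fold change (BcorΔE9-10 against BcorWT) of the members was -0.04, beside -0.03 for all genes, with 39 members above 0 and 46 below. The estimates of 61 members lay within 1 standard error of 0, and 73 were smaller than 0.5 in size. By complex the median was -0.04 for complex I, 0.08 for complex II, -0.11 for complex III, -0.09 for complex IV and -0.08 for complex V. Scaled by library totals alone, the median of the members was 0.00, that of complex I 0.02 and that of all genes 0.04, so neither the members nor complex I had a direction that held across scalings. Without BcorWT replicate 1 the median of the members was -0.17, and without BcorWT replicate 2 it was 0.06.

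**Figure D2:**
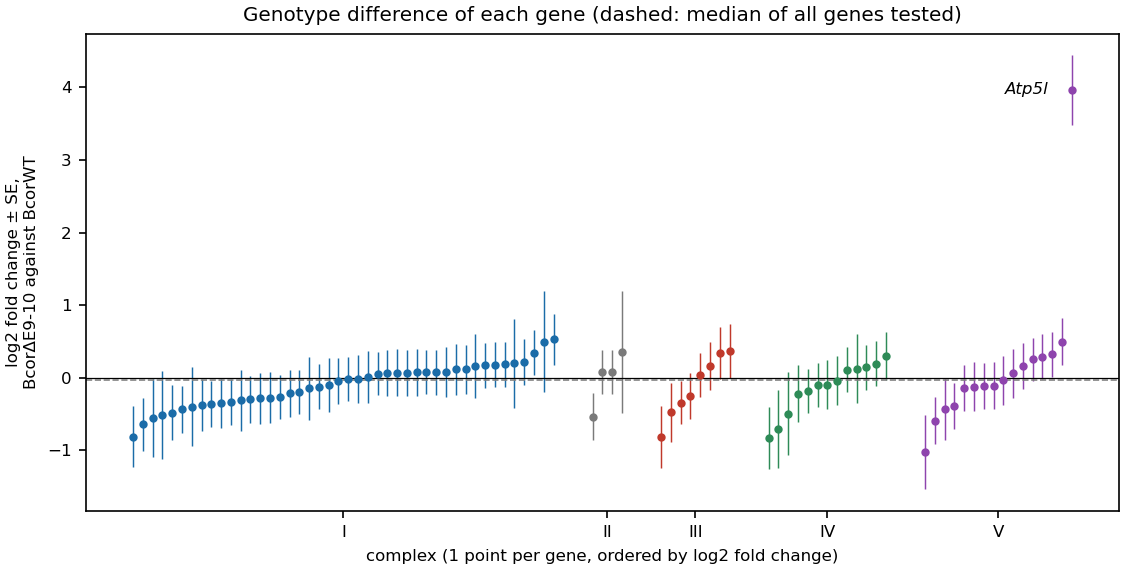
Log2 fold change of each member with its standard error from the edgeR fit, BcorΔE9-10 against BcorWT, 1 point per gene and grouped by complex. All members other than Atp5l lie between -1.03 and 0.53, most with error bars that reach 0.

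Summed over the 44 members of complex I, the level was 2947 and 2858 CPM in BcorΔE9-10 replicates 1 and 2 and 2780 and 3493 CPM in BcorWT replicates 1 and 2. Both BcorΔE9-10 sums lay between the BcorWT sums. Complex II summed to 218 and 233 CPM against 235 and 264 CPM, a log2 ratio of the means of -0.15, and is the only complex whose sums did not overlap between genotypes. As CPM of the library totals, with no scaling factor, its sums were 233 and 229 against 211 and 281, and then overlapped as well. Of the 4 members of complex II, Sdhc alone had libraries that did not overlap, and 3 had a log2 fold change above 0. Complex III summed to 1081 and 925 CPM against 999.6 and 1003 CPM, a log2 ratio of 0.00. Complex IV summed to 2039.8 and 1942 CPM against 1831 and 2478 CPM. Complex V summed to 2832 and 2762 CPM against 2406 and 3042 CPM, and without Atp5l to 2502 and 2501 CPM against 2395 and 3015 CPM. For every complex but III the spread between the BcorWT libraries exceeded that between the BcorΔE9-10 libraries.

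Complex I is built around a core that carries the flavin and the iron-sulfur clusters, and 7 of its genes were measured. Their median log2 fold change was -0.20, with 3 above 0 and 4 below. Ndufs7, which holds the last iron-sulfur cluster before ubiquinone, was at 31.6 and 30.2 CPM in BcorΔE9-10 and at 33.0 and 75.1 CPM in BcorWT. BcorWT replicate 2 stood above the other 3 libraries, which lay close together. The log2 fold change was -0.81 (SE 0.42) with an adjusted p of 0.945 in edgeR, and it was -0.10 without BcorWT replicate 2. Ndufv1, which binds NADH and flavin, was at 51.2 and 37.7 CPM in BcorΔE9-10 and at 28.3 and 101 CPM in BcorWT, so that the BcorWT libraries enclosed the others. Its log2 fold change of -0.55 (SE 0.55) became 0.65 without BcorWT replicate 2.

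The 29 accessory subunits of complex I, which surround the core and take no direct part in electron transfer, had a median log2 fold change of -0.02, with 6 members (20.7%) whose libraries did not overlap in each direction, near the 16.8% (higher) and 17.1% (lower) of all genes. The range of their log2 fold changes was -0.49 to 0.53. Ndufc2, a small membrane arm subunit, had the upper value, at 60.1 and 65.0 CPM in BcorΔE9-10 and 53.4 and 33.7 CPM in BcorWT (SE 0.34, adjusted p = 0.945 in edgeR). Its libraries did not overlap, but the lowest level was that of BcorWT replicate 2, and without it the log2 fold change was 0.23. Its gene shares bases with Gm16053 on the same strand, so a part of its tags could have been counted there or left out. Ndufb8, a subunit whose protein is lost readily when complex I fails to assemble, had the highest mean level of the complex, with 288, 224, 261 and 403 CPM in BcorΔE9-10 replicates 1 and 2 and BcorWT replicates 1 and 2. Its log2 fold change of -0.38 (SE 0.36) was -0.03 without BcorWT replicate 2. The 8 assembly factors were low, with a median of their mean levels of 9.86 CPM against 79.6 CPM for the accessory subunits. Ndufaf1, which helps to build the membrane arm, was the lowest of them at 4.25, 3.91, 4.38 and 2.82 CPM, a log2 fold change of 0.20 (SE 0.61).

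Complex II is the succinate dehydrogenase of the citric acid cycle and has no mitochondrially encoded subunit. Its catalytic pair, the flavoprotein Sdha and the iron-sulfur protein Sdhb, hardly differed. Sdha was at 73.9 and 66.5 CPM in BcorΔE9-10 and at 66.6 and 66.8 CPM in BcorWT, a log2 fold change of 0.07 (SE 0.30). Sdhb was at 60.3 and 56.2 CPM against 49.6 and 60.6 CPM, a log2 fold change of 0.08 (SE 0.31). Both sets of levels overlapped. The membrane anchor Sdhc was at 75.8 and 79.2 CPM against 92.6 and 132 CPM (log2 fold change -0.54, SE 0.33, edgeR adjusted p = 0.945), and its libraries did not overlap. Without BcorWT replicate 2 its log2 fold change was -0.26. The other anchor, Sdhd, varied most of all members within both genotypes. It had 42 and 192 counts in BcorΔE9-10 and 91 and 25 counts in BcorWT, or 7.76, 31.3, 26.6 and 4.70 CPM, and its log2 fold change of 0.35 (SE 0.84) became -0.98 without BcorΔE9-10 replicate 2 and -0.44 without BcorWT replicate 2.

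In complex III the core protein Uqcrc1 was at 69.5 and 66.0 CPM in BcorΔE9-10 and at 72.7 and 166 CPM in BcorWT. As for Ndufs7, BcorWT replicate 2 alone stood above the rest. The log2 fold change was -0.82 (SE 0.42, edgeR adjusted p = 0.945), and -0.10 without that library. The other core protein, Uqcrc2, was at 68.8, 65.2, 68.0 and 62.7 CPM, a log2 fold change of 0.04 (SE 0.30). The Rieske iron-sulfur protein Uqcrfs1, which hands electrons to cytochrome c1, was at 79.5 and 54.1 CPM against 58.1 and 61.0 CPM (log2 fold change 0.16, SE 0.33). It was the lowest of the complex by mean level, and Uqcrh, a hinge protein between cytochrome c1 and cytochrome c, was the highest at 471, 382, 408 and 265 CPM (0.34, SE 0.36, and 0.06 without BcorWT replicate 2). Uqcrb, which binds near the ubiquinone site, was at 123 and 106 CPM against 115 and 63.4 CPM. Here BcorWT replicate 2 was the lowest library, and the log2 fold change of 0.36 (SE 0.37) was -0.01 without it.

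In complex IV the nuclear subunits surround a mitochondrially encoded catalytic core. Cox4i1, the regulatory subunit that binds ATP, was at 114 and 113 CPM in BcorΔE9-10 and 121 and 282 CPM in BcorWT. Again 3 libraries were alike and BcorWT replicate 2 lay above them. The log2 fold change was -0.83 (SE 0.43, edgeR adjusted p = 0.945), and -0.10 without BcorWT replicate 2. Cox4i1 shares bases with Gm20388 on its own strand and with Emc8 on the other. Cox7a2l, which joins complexes III and IV into supercomplexes, was at 209 and 133 CPM against 136 and 421 CPM, a log2 fold change of -0.71 (SE 0.53) that turned to 0.32 without BcorWT replicate 2. Its subunit relative Cox7a2 was at 139.5 and 155 CPM against 149 and 124 CPM (0.11, SE 0.31). Cox6c had the highest mean of the complex, at 389 and 408 CPM against 347 and 352 CPM, and its groups did not overlap (0.19, SE 0.31, edgeR adjusted p = 0.962). Of the 2 Cox6b isoforms, the common Cox6b1 was at 161, 134, 123 and 181 CPM (-0.04, SE 0.34). Cox6b2, known from testis, was at 6.28, 7.01, 4.97 and 13.5 CPM (-0.50, SE 0.57), and the estimates of both isoforms changed sign without BcorWT replicate 2.

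In complex V the F1 part holds the catalytic head and its stalk. Atp5d, the delta subunit of that stalk, had the lowest log2 fold change of all members, -1.03 (SE 0.51, edgeR adjusted p = 0.945). It was at 106 and 79.4 CPM in BcorΔE9-10 and at 94.3 and 282 CPM in BcorWT, so its groups overlapped, and without BcorWT replicate 2 the log2 fold change was -0.03. The catalytic subunit gene Atp5b was at 303, 304, 256 and 367 CPM (-0.04, SE 0.34), and Atp5a1, which forms the head with it, was at 242, 204, 262 and 222 CPM (-0.12, SE 0.32). Atp5f1, subunit b of the peripheral stalk that holds the head still, was at 92.8 and 105 CPM against 80.3 and 59.7 CPM (0.50, SE 0.32, edgeR adjusted p = 0.945), and its groups did not overlap, with 0.30 left without BcorWT replicate 2. Its gene shares bases with Wdr77 on the other strand. The rotating c ring is made from 3 genes that encode the same mature protein, and all 3 estimates were below 0. Atp5g1 was at 98.5 and 93.1 CPM against 121 and 168 CPM (-0.59, SE 0.33) and did not overlap, and its estimate was -0.34 without BcorWT replicate 2. Atp5g2 was at 204 and 197 CPM against 185 and 248.6 CPM (-0.11, SE 0.32). Atp5g3, the most abundant member of all by tags, was at 509 and 455 CPM against 449 and 601 CPM (-0.12, SE 0.33). The last 2 overlapped and turned to 0.11 and 0.10 without that library. Atp5sl (RefSeq symbol Dmac2) was placed in this complex by its older name alone. It was at 10.7, 10.8, 10.8 and 18.1 CPM (-0.44, SE 0.43), and its estimate was -0.01 without BcorWT replicate 2.

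A single member differed widely. Atp5l encodes subunit g, a small membrane subunit at the dimer interface of the ATP synthase (ENSMUSG00000038717, GRCm38 chromosome 9 from 44912557 to 44920742, minus strand). It had 1786 and 1602 counts in BcorΔE9-10 replicates 1 and 2 and 39 and 139 counts in BcorWT replicates 1 and 2, or 330.1 and 261 CPM against 11.4 and 26.2 CPM. The log2 fold change was 3.96 (SE 0.48) and the adjusted p was 0.0936 in edgeR, so it missed the threshold. The adjusted p was 0.0340 in limma-voom and 1.08e-14 in DESeq2, and it lay between 0.000896 and 0.151 over the other edgeR settings and the libraries left out, with the gene itself counted as deposited. When each library was left out in turn the log2 fold change stayed between 3.49 and 4.69.

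Atp5l has near-identical copies elsewhere in the genome, and 2 of them had counts of their own. Atp5l2-ps on chromosome 11 from 97768060 to 97768371 is a processed pseudogene that matches the Atp5l coding sequence over 312 bases with 2 mismatches (99.36% identity). Gm10221 on chromosome 5 from 24581554 to 24581862 matches it without a mismatch over 309 bases. The last 150 bases of the coding sequence (positions 163 to 312, counted from the start codon), read from GENCODE M21 on GRCm38, are shown for the gene and Atp5l2-ps because the loci differ there at a single base, given in capitals. The annotated Atp5l transcript goes on for 151 bases after the stop codon, where tags of its 3′ end would fall, while the annotated Atp5l2-ps ends with the stop codon, so the stretch shown is not the whole of what 3′ tags could cover.
Atp5l: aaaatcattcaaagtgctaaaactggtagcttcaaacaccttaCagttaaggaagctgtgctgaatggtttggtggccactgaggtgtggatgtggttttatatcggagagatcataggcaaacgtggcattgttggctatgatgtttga
Atp5l2-ps: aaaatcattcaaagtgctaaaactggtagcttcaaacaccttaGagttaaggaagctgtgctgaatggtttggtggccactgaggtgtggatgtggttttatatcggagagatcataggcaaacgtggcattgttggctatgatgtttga

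The copies did not follow Atp5l. Atp5l2-ps had 1522 and 1486 counts in BcorΔE9-10 and 919 and 1553 counts in BcorWT (log2 fold change -0.10, SE 0.31). Gm10221 had 44 and 176 counts in BcorΔE9-10 and 743 and 110 counts in BcorWT, high in BcorWT replicate 1 alone (-2.68, SE 1.00). Added up, the gene and both copies had 3352 and 3264 counts against 1701 and 1802 counts, or 619 and 532 CPM against 497 and 339 CPM. The groups still did not overlap, but the log2 fold change was 0.46 (SE 0.35, edgeR adjusted p = 0.945). The difference in Atp5l as counted was therefore 3.96 on the log2 scale and that of all tags given to the gene and both copies was 0.46, and whether reads were divided differently between the loci in different libraries was not tested. The sum was formed after the values were seen.

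**Figure D3:**
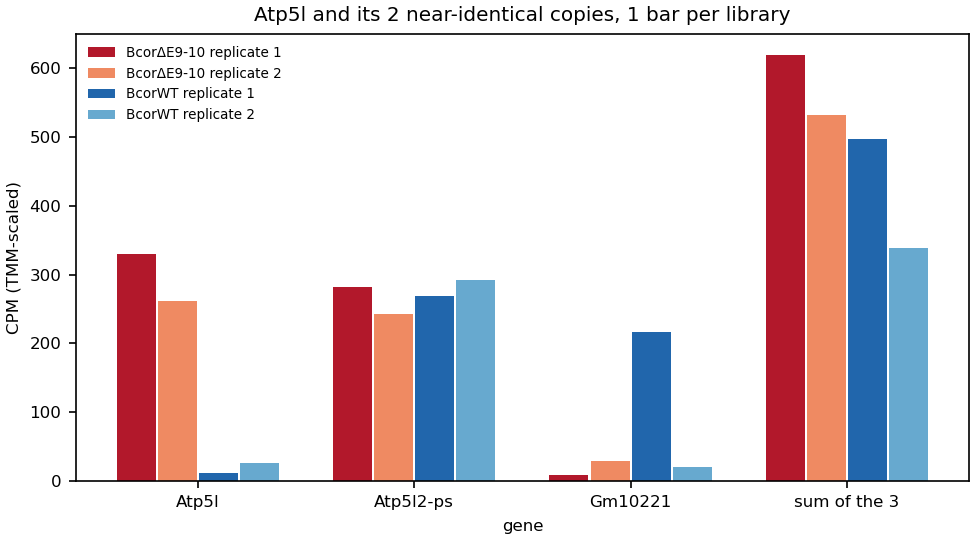
CPM of Atp5l, of its copies Atp5l2-ps and Gm10221, and of their sum, 1 bar per library (red BcorΔE9-10, blue BcorWT). Atp5l is at 261 CPM or more in BcorΔE9-10 and at most 26.2 CPM in BcorWT, while the sums lie between 339 and 619 CPM.

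Similar sequences elsewhere are common in these families. A transcript of the annotation that aligned over at least 100 bases and at least 50% of its length at 90% identity or more was found for 39 members, and for 18 members such transcripts were in the table, 26 in all, 2 of them under other RefSeq symbols (Gm3244 for a copy of Ndufb4 and Gm6265 for a copy of Cox6c). Of the 39, 36 had a match that was neither a small RNA nor a gene at the member's own locus, and 17 had 25 such copies in the table. Ndufaf7 matched small RNAs alone, and Ndufb8 and Ndufb9 matched only a gene that overlaps their own. With each member summed with its matches among all 26, 0 members were at an unadjusted p under 0.05. For Cox7c, which had 4 copies in the table, the log2 fold change was 0.30 by its own counts and 0.14 with the copies. For Atp5h, whose copy Gm10250 held 521, 589, 296 and 639 counts, it was 0.06 by its own counts and -0.02 with the copy.

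The libraries of one genotype differed from each other by more in BcorWT than in BcorΔE9-10. Over the members, the median absolute log2 difference between replicates was 0.412 in BcorWT and 0.148 in BcorΔE9-10, beside 0.568 and 0.305 for all genes. BcorWT replicate 2 was above replicate 1 for 58 of 85 members, against 5815 of 12067 genes, and it was the highest of the 4 libraries for 44 members, against 4158 genes. BcorΔE9-10 replicate 2 was above replicate 1 for 38 members. With BcorWT replicate 1 left out, which sets both BcorΔE9-10 libraries against BcorWT replicate 2 and takes the spread of BcorΔE9-10 for that of both groups, 5 members passed an adjusted p of 0.05 in edgeR, where 596 genes did over the table. They were Atp5l (3.49, adjusted p = 0.00251), Atp5d (-1.61, adjusted p = 0.0207), Cox4i1 (-1.32, adjusted p = 0.0284), Uqcrc1 (-1.30, adjusted p = 0.0296) and Ndufs7 (-1.29, adjusted p = 0.0334). Without BcorWT replicate 2, 1 member passed, Atp5l, where 30 genes did, and it was again Atp5l alone without either BcorΔE9-10 library (6 and 34 genes).

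**Figure D4:**
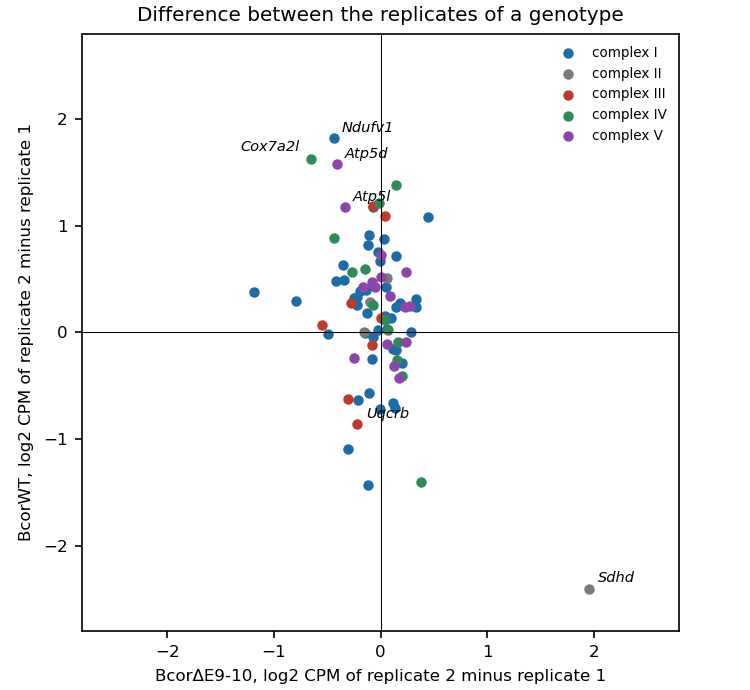
Difference in log2 CPM between the replicates (2 minus 1) of BcorΔE9-10 on the x axis and of BcorWT on the y axis, 1 point per member, coloured by complex. The points spread more along the y axis, and 58 of 85 lie above 0 on it. Sdhd lies apart in both genotypes.

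The members differ in base composition, and the difference between the BcorWT replicates varied with it. Over 84 members with a transcript in the annotation, Spearman's rho of the percent of G and C in the transcript was 0.441 with the difference of BcorWT replicate 2 from replicate 1 and -0.0115 with that of the BcorΔE9-10 replicates. Over 11948 genes of the table the first value was 0.412. With the log2 fold change rho was -0.506 for the members and -0.388 for all genes. The 28 members lowest in G and C had a median log2 fold change of 0.13, the 28 in the middle -0.01 and the 28 highest -0.31. These are descriptions across genes that share the same 4 libraries, and the part of base composition in the differences between genotypes was not tested. Transcript length showed no such relation among the members (rho of 0.0084 with the log2 fold change).

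Motifs known to bind regulators of mitochondrial genes were each found in promoters of a minority of the members. RefSeq promoters of GRCm38.p6, from 250 bases before to 50 bases after a start site, were found for 73 members, and short motifs were searched on both strands. The core GCGCATGC of nuclear respiratory factor NRF1 was in promoters of 12 members (16.4%) against 3.05% of 27025 genes. The ETS motif CCGGAAG, bound by GABP, was in 18 members (24.7%) against 9.93% of genes. The YY1 motif AAGATGGC was in 12 members (16.4%) against 3.19% of genes. The estrogen-related receptor motif TCAAGGTCA was in 2 members (2.74%) against 0.466% of genes, and the cyclic AMP response element TGACGTCA was in 4 members (5.48%) against 2.03% of genes. The 27025 genes are all those of the promoter set, measured here or not, so the members were not set against other expressed genes. A match describes letters in the window and not a bound site. The 100 bases upstream of the start site of 3 members are shown as examples of an NRF1 match, an ETS match and an estrogen-related receptor match, with the matches in capitals (those of NRF1 overlap), for Ndufa11 at chr17:56717662-56717761 (plus strand), Uqcrh at chr4:116075071-116075170 (minus strand) and Atp5g3 at chr2:73911327-73911426 (minus strand).
Ndufa11: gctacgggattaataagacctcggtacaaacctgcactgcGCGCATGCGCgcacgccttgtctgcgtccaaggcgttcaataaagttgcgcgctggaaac
Uqcrh: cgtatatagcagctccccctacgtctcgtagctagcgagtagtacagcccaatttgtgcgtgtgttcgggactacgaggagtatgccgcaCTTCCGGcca
Atp5g3: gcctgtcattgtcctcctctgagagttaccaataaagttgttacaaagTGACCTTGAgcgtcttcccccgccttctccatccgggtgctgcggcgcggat

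The genes of these regulators were read with a list of 16 genes of mitochondrial gene expression, all measured. Nrf1 was at 38.1 and 43.8 CPM in BcorΔE9-10 and at 39.7 and 91.6 CPM in BcorWT, so that BcorWT replicate 2 alone stood above the rest, and its log2 fold change of -0.69 (SE 0.43) was 0.04 without that library. For Gabpa the log2 fold change was 0.47 (SE 0.38), for Yy1 0.61 (SE 0.36) and for Esrra -0.30 (SE 0.33), and without BcorWT replicate 2 these were 0.25, 0.28 and 0.01. None of the 4 had an unadjusted p under 0.05 in edgeR. Ppargc1a, the coactivator of mitochondrial biogenesis, was the only gene of the list that had, with 1 and 3 counts in BcorΔE9-10 and 15 and 14 counts in BcorWT (edgeR adjusted p = 0.945), so that both BcorΔE9-10 libraries were at or under 3 counts. The list had 7 genes above 0 and 9 below, with a median of -0.08.

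Among the other genes of the pathway, 0 passed an adjusted p of 0.05 in edgeR. The subunits and carriers outside the naming rule were 8 genes, all measured (3 of the 11 symbols listed are newer names of the same genes), with a median log2 fold change of -0.12 and 0 at an unadjusted p under 0.05. Cyc1, the cytochrome c1 of complex III, was at 21.8 and 21.2 CPM in BcorΔE9-10 and 26.9 and 36.9 CPM in BcorWT (-0.57, SE 0.33), and Cycs, cytochrome c itself, was at 90.2, 99.9, 104 and 84.5 CPM (0.02, SE 0.31). Without BcorWT replicate 2 these estimates were -0.32 and -0.13. Of 38 assembly factors with other names, 36 were measured, with 16 above 0, 20 below, 0 at an unadjusted p under 0.05 and a median of -0.11. The citric acid cycle and pyruvate dehydrogenase (17 genes) had a median of 0.15, with 11 above 0 and 6 below. The carriers and channels of ADP, phosphate and protons (10 genes) had a median of -0.04. Glycolysis (17 of 18 genes) had a median of -0.33, with 4 above 0 and 13 below. Its summed level was 2049 and 2229 CPM in BcorΔE9-10 and 2071 and 2988 CPM in BcorWT, so BcorWT replicate 2 alone lay above the rest. In these 3 lists 0 genes were at an unadjusted p under 0.05.

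Among the subunits that mitochondrial DNA encodes, 1 library stood apart. Summed over all 13, the level was 3678 CPM in BcorΔE9-10 replicate 1 and 7820 CPM in BcorΔE9-10 replicate 2, 7756 CPM in BcorWT replicate 1 and 7402 CPM in BcorWT replicate 2. The low value came from neighbouring genes between positions 5328 and 9390 of the mitochondrial genome. For mt-Co2, a catalytic subunit of complex IV, the counts were 471 in BcorΔE9-10 replicate 1 and 6258, 3932 and 5717 in the other 3 libraries. The same library was the lowest for mt-Co1 (337, 1153, 1234 and 1342 CPM), mt-Co3 (176, 1739, 2005 and 1523 CPM) and mt-Atp6 (88.9, 851, 878 and 601 CPM). That library was not the lowest for any subunit gene outside the stretch, where mt-Nd1 was at 573, 617, 524 and 435 CPM and mt-Cytb at 917, 900.3, 762 and 1079 CPM. Of the transfer RNA genes outside it that the table holds, it was the lowest for mt-Tg (3.70, 7.17, 21.3 and 13.9 CPM), mt-Tq (62.1, 84.1, 68.3 and 114 CPM) and mt-Tc (46.0, 57.1, 53.4 and 47.2 CPM). The median log2 fold change of the 13 was -0.04, and 1 was at an unadjusted p under 0.05, mt-Atp8, with 11, 153, 73 and 715 counts (-2.53, SE 1.08, edgeR adjusted p = 0.945). Its end overlaps the start of mt-Atp6.

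**Figure D5:**
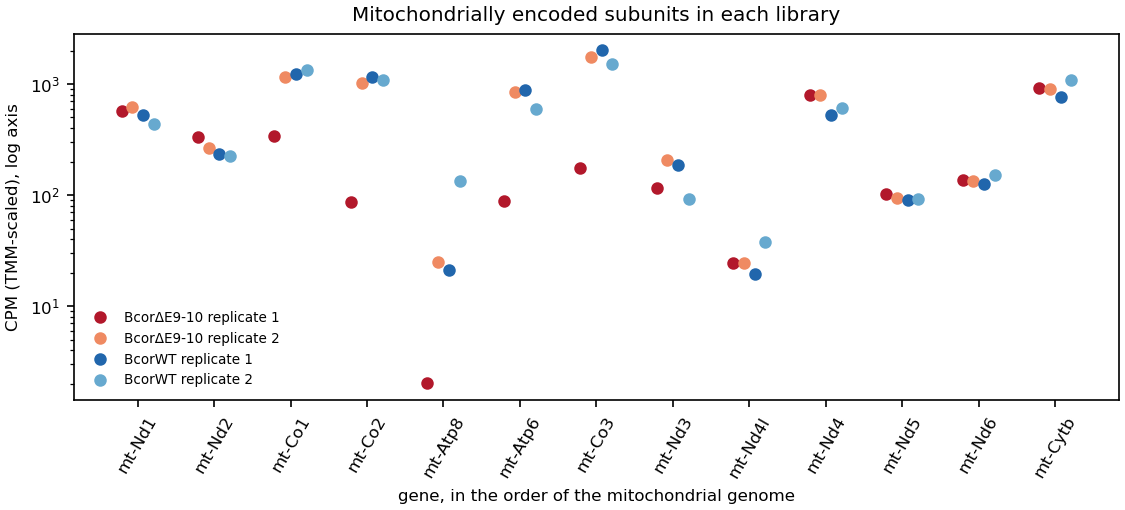
CPM of the 13 mitochondrially encoded subunits in each library on a log axis, in the order of the mitochondrial genome. From mt-Co1 to mt-Co3 the points of BcorΔE9-10 replicate 1 lie below the other 3 libraries.

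Of the markers of other cell types, 0 passed an adjusted p of 0.05 in edgeR, and 2 lists held several genes at an unadjusted p under 0.05. All 8 measured erythroid genes of 10 listed had a log2 fold change above 0, 4 of them at an unadjusted p under 0.05 (1.34% of all genes), with a summed level of 197 and 178 CPM against 78.0 and 87.9 CPM. All 8 eosinophil, basophil and mast cell genes had one below 0, 6 of them at an unadjusted p under 0.05 (3.07% of all genes), with a summed level of 271 and 244 CPM against 579 and 756 CPM. Late neutrophil genes (8) summed to 63364.5 and 155144 CPM against 94398 and 143510 CPM, so both genotypes spanned a wide range. Monocyte and dendritic cell genes (7 of 8) summed to 306 and 255 CPM against 352 and 399 CPM, and megakaryocyte genes (4 of 6) to 108 and 141 CPM against 109.5 and 266 CPM. B and T cell genes (3 of 8) summed to at most 32.3 CPM, and Cd3e and Cd4 were not in the table. Myeloid progenitor genes (8) summed to 11046 and 8309 CPM against 11187 and 11181 CPM, below the late neutrophil sum in every library. The part of these cell types in the levels of the members was not tested, and in sorted cells measured in bulk, fewer cells of a type and less RNA per cell cannot be told apart.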

How the data were processed

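The deposited table holds gene counts that the authors made from single-end Quant-seq reads, after cutadapt (version 1.7 per the submitters' processing notes), HISAT2 on GRCm38 (mm10) and featureCounts of Subread. In BcorΔE9-10 replicate 2 and BcorWT replicate 1 the deposited columns were given the unit expected counts, because 1 gene, Gm4430, is not whole there, and these 2 values were rounded. The filter behind the table is not given in the sources used here. Genotypes (2 libraries each) were compared with edgeR 4.0.16 in R 4.3.3 (filterByExpr, which removed 0 genes, TMM, quasi-likelihood F test, Benjamini-Hochberg over 12067 genes, prior count 0.125). The standard error (SE) is the log2 fold change over the square root of F. Differences between replicates used log2 CPM with a prior count of 2. Alternatives were limma-voom (limma 3.58.1), DESeq2 1.42.0, other scalings and filters, the replicate number as a block and each library left out. Copies were found with blastn 2.17.0. The fits were tested on simulated counts. The members, lists and named genes were chosen with earlier results of these data known. Values in full were given for members at an unadjusted p under 0.05, the highest and lowest mean of each complex, the 5 highest and 5 lowest log2 fold changes and the 3 largest replicate differences per genotype (these at a mean of at least 10 CPM), the c ring and complex IV isoforms. Other members are named for their roles, and of these Sdha, Sdhb, Uqcrc2, Atp5b and Atp5a1 are given with levels and estimates. Some items are not reported here.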

Additional observations from a re-analysis of the deposited data

How the results depend on the processing

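Atp5l passed an adjusted p of 0.05 (edgeR unless named) with at least 10 counts in every library (3.96, 1 member of 5 genes called), with the replicate block (4.06, 1 of 14), in limma-voom (4.01, 1 of 4) and in DESeq2 (3.96, 1 of 43, where 1 member was lower at an unadjusted p under 0.05). It did not with DESeq2 size factors, library totals, no filter or Gm42418 left out. Library totals gave 5 members that did not overlap and were lower, and 0.00476 for Cox6b1. Summing copies gave 0 members higher at an unadjusted p under 0.05; this and leaving out Atp5l were chosen after seeing the data. The cause was not tested.

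With 1 library left out, between 6 and 596 genes and 1 to 5 members were called, 1 to 6 members were higher (0.580 to 11.9% of all genes) and 0 to 14 lower (1.43 to 13.1%) at an unadjusted p under 0.05. 18 to 39 did not overlap and were higher (29.0 to 40.9% of all genes) and 21 to 46 were lower (29.2 to 40.6%), since fewer libraries make overlap rarer. The 14 and 46 were without BcorWT replicate 1, where 13.1% and 40.6% of all genes were so. Medians ranged from -0.17 to 0.0614 (all), -0.16 to 0.0130 (I), -0.22 to 0.0119 (II), -0.24 to -0.02 (III), -0.17 to 0.20 (IV) and -0.23 to 0.14 (V). Sign changes were listed only for members that met the rule for values in full, and other members are not listed. Those that changed sign ranged from -0.14 to 0.42 (Uqcrfs1), -0.30 to 0.27 (Cox6b1), -0.98 to 2.05 (Sdhd), -0.31 to 0.11 (Atp5g2), -0.32 to 0.10 (Atp5g3), -1.03 to 0.42 (Cox6b2), -0.0145 to 0.24 (Cox7a2), -1.31 to 0.32 (Cox7a2l), -0.10 to 0.52 (Ndufaf1), -1.19 to 0.65 (Ndufv1) and -0.00772 to 0.85 (Uqcrb). A lone library was assumed to vary like the other group.

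Deviations of same-numbered libraries had a correlation of -0.094 over all genes and -0.413 over the members, and no label says that a number marks a shared animal or batch, so the libraries were not taken as pairs; the block gave 14 calls and a median of -0.02. With 2 libraries a group, small differences are not detectable at this depth and replication.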

Other observations

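The genes whose counts over the 4 libraries were most like those of Atp5l were read by the distance of their log2 CPM pattern, a choice made after the values were seen. Of the 10 nearest, Rhd (37, 47, 0 and 1 counts) and Rhag (25, 15, 1 and 0 counts) belong to the Rhesus complex of red cells. Gm9800 (4923, 2955, 190 and 214 counts), Gm11425 (1309, 1166, 19 and 28 counts) and Tpt1-ps6 (490, 438, 50 and 87 counts) are among 4 processed pseudogenes.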
